A study of Drosophila melanogaster with 3 samples.

Results

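The Rab genes of Drosophila melanogaster were examined in a map of the genomic binding of the protein encoded by CG16863, made by chromatin immunoprecipitation and sequencing (ChIP-seq). Genes were taken as Rab genes by name alone, where the symbol began with Rab or RabX followed by a digit. The rule itself holds no binding value. Of 18164 annotated genes on the chromosome arms used, 36 met this rule, and all 36 were among the 13945 protein-coding genes. They comprised 33 genes for GTPases and 3 for regulators that carry the name of a Rab. The regulators were Rab3-GEF, an exchange factor, and Rab3-GAP and Rab3GAP1, the subunits of a GTPase-activating complex. All samples were whole embryos of mixed sex, 0 to 16 h old, from a transgenic line carrying CG16863 with green fluorescent protein (eGFP) fused to its C-terminal end, and the tag was precipitated with an anti-GFP antibody. The 3 samples are biological replicates of this single group, so there was no contrast to test. Tissues and stages are mixed in such embryos, and the labels do not say whether untagged protein was still made. Peaks of a control sample were not analysed here.

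Rab proteins are small GTPases that mark the membranes of the cell. In the GTP-bound state a Rab sits on a membrane through prenyl groups at its end and recruits effectors such as tethers, motors and sorting factors, which direct vesicles to the right target. Guanine nucleotide exchange factors (GEFs) load GTP and so place the Rab, and GTPase-activating proteins (GAPs) end its active state. In the fly embryo this traffic delivers membrane to the furrows of the dividing blastoderm, builds the polarity of epithelia and moves yolk, receptors and secreted matrix.

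CG16863-eGFP was found at few Rab promoters. A gene was called bound where the summit, the highest point, of a peak from the authors' reproducible set lay within 500 bp of one of its transcription start sites (TSSs). That set held 3953 peaks, selected by IDR (irreproducible discovery rate). By this measure 7 of 36 Rab genes were bound (19.4%), beside 17.1% of all protein-coding genes and 14.3% of all genes, so the share was near the background. The bound genes were Rab5, Rab7 and Rab39 of the endosomal and lysosomal system, Rab8 of polarised delivery, Rab30 of the Golgi, Rab40, and the regulator Rab3GAP1. A further 4 genes, Rab11, Rab14, Rab23 and Rab32, had a reproducible summit inside the gene and none at a start site, so 11 of 36 genes (30.6%) had one in either place, beside 21.6% of protein-coding genes. A pooled relaxed peak, from a list that also includes weak calls, lay within 500 bp of a start site of 22 of 36 Rab genes (61.1%), beside 47.0% of protein-coding genes. Of these 22 genes, 7 were bound (31.8%), beside 34.2% of all genes with such a relaxed peak.

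**Figure D1:**
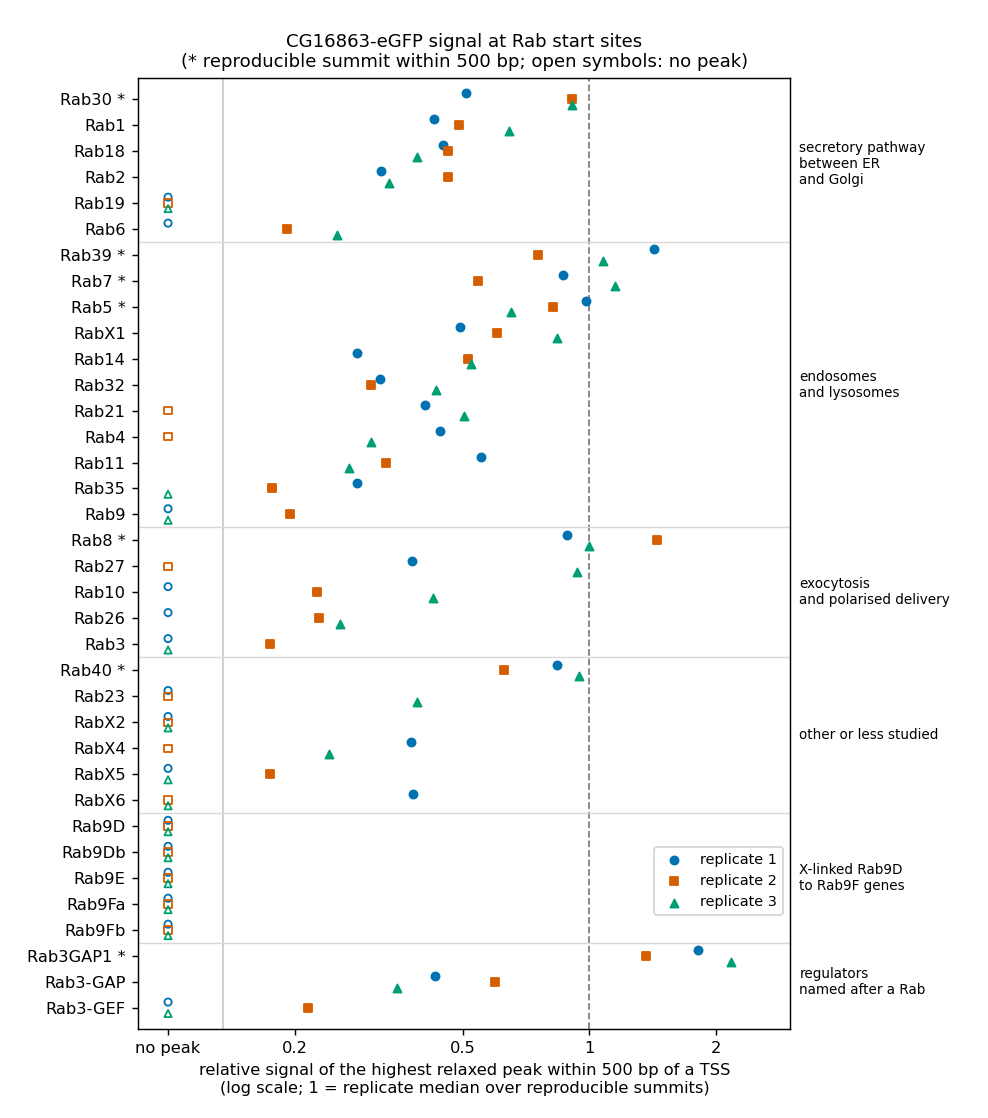
Relative signal of the highest relaxed peak within 500 bp of a TSS, on a log scale, for the 36 Rab genes in each of 3 replicates, grouped by role. A value of 1 is the median of the replicate over the reproducible summits, open symbols at the left mark replicates without a peak, and the 7 genes with a star had a reproducible summit. The 5 X-linked genes Rab9D to Rab9Fb had no such peak in any replicate, and neither did RabX2 or Rab19. Only Rab3GAP1 lay above 1 in all 3.

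At 3 of the 7 bound promoters, those of Rab8, Rab7 and Rab40, the pooled summit lay 10 to 15 bp upstream of the TSS. It was almost on top of a DRE. This element, the DNA replication-related element, is a core-promoter sequence of many broadly expressed fly genes and is bound by the factor Dref. These windows and that of Rab30 are shown because they carry the matches, and that of Rab3GAP1 because its peak was the highest at a Rab promoter. Each is the strand of the Rab gene, 5′ to 3′, from the RefSeq Release 6 genome (dm6 coordinates), and bases of untranslated exon beyond 30 were trimmed. The Rab8 window is chr3L:19871049-19871138 on the minus strand, and that of Rab7 is chr3R:23992948-23993037 on the plus strand. Those of Rab40 (chrX:12463083-12463177), Rab30 (chr2L:7032656-7032750) and Rab3GAP1 (chr2L:1611297-1611397) are on the minus strand. Capitals mark the DRE (TATCGATA), its shorter core (CGATA or, on the other strand, TATCG), motif 7 (CATCNCTA or TAGNGATG) and 1 E-box (CAGCTG).
Rab8: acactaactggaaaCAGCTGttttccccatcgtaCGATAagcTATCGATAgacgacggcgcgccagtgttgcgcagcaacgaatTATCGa
Rab7: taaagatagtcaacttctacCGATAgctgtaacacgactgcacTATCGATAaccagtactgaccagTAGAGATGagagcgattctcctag
Rab40: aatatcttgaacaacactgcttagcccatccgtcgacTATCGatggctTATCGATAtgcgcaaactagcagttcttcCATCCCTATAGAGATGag
Rab30: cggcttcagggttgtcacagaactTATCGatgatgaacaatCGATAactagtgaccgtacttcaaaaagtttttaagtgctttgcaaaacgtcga
Rab3GAP1: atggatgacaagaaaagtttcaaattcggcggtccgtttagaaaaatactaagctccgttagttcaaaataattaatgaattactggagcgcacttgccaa

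Motifs, chosen with earlier results of these data known, were searched on both strands in windows that reach 50 bp to either side of a summit. A DRE was present in 3 of the 7 Rab promoter windows, beside 4.33% of the 1985 windows around all reproducible summits within 500 bp of a TSS. This count rested on few libraries. By the peaks that the remaining replicates shared, 0 of 4 bound promoters had a DRE without replicate 1, 2 of 5 (Rab7 and Rab8) without replicate 2 and 1 of 4 (Rab8) without replicate 3. Among reproducible peaks at or above their median signal 1 of 3 (Rab8) had one. Within 500 bp of a TSS, Rab8 had one of the strongest peaks of each replicate, and Rab7 and Rab40 of replicates 1 and 3 only. For Rab40 in replicate 3 that peak, at 0.946, lay over 100 bp from the summit near the DRE. The matched peak at that summit was low in replicate 3, at 0.383. In windows of the same length centred on 19607 TSSs of protein-coding genes the share was 4.47%. The shorter core CGATA, which every DRE contains on both strands, was in 4 of 7 windows, those with a DRE and that of Rab30, beside 23.1% of all promoter windows and 23.7% of TSS windows. The middle of the DRE lay 14 bp upstream of the TSS at Rab8 and at Rab7 and 13 bp upstream at Rab40. It was thus 4, 4 and 2 bp from the respective pooled summit. Peaks of single replicates were not all so close. With replicate peaks matched within 50 bp of the summit in place of 100 bp, the mean relative signal at Rab8 went from 1.11 to 0.861. Such a mean covers only the replicates that still had a peak within 50 bp, and their number was not recorded. The 0.861 lay below all 3 replicate values at 100 bp (0.883, 1.45 and 0.998), so it may rest on replicate 1 alone. At Rab40 the mean went from 0.615 to 0.713. Some replicate peaks counted at both genes thus had summits over 50 bp away. At Rab7 the change was small, from 0.853 to 0.829. Over all 86 promoter windows with a DRE, the median distance to the summit was 20 bp, and 13 (15.1%) had it within 5 bp.

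Motif 7, another core-promoter sequence, was present in 3 of the 7 windows, at Rab39, Rab7 and Rab40, beside 3.48% of all promoter windows and 3.43% of TSS windows. Of these, Rab7 and Rab40 were no longer bound without replicate 1 or without replicate 3. Rab7 and Rab40 carried both elements, as did 11 of the 1985 promoter windows (0.554%). Nearness to the TSS went with these elements over the whole set. Among the 192 reproducible summits within 20 bp of a TSS, a distance chosen after the values were seen, 13.5% of windows had a DRE, 10.4% had motif 7 and 4.17% had both. The E-box CAGCTG was found at Rab8 alone (5.59% of all promoter windows), and CACGTG at Rab5 alone (1.36%). Motif 1 (GGTCACAC), GAGA repeats (GAGAGAG), the Zelda site (CAGGTAG) and the TATA box (TATAAA) were in 0 of 7 windows, beside 1.56%, 1.46%, 0.554% and 16.7% of all promoter windows. The share of G and C was 46.5%, 43.6% and 43.6% in the windows of Rab8, Rab7 and Rab40 and from 36.6% to 38.6% in the other 4, beside a median of 36.6% for all promoter windows. A match describes the sequence and does not show that a factor was bound there.

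**Figure D2:**
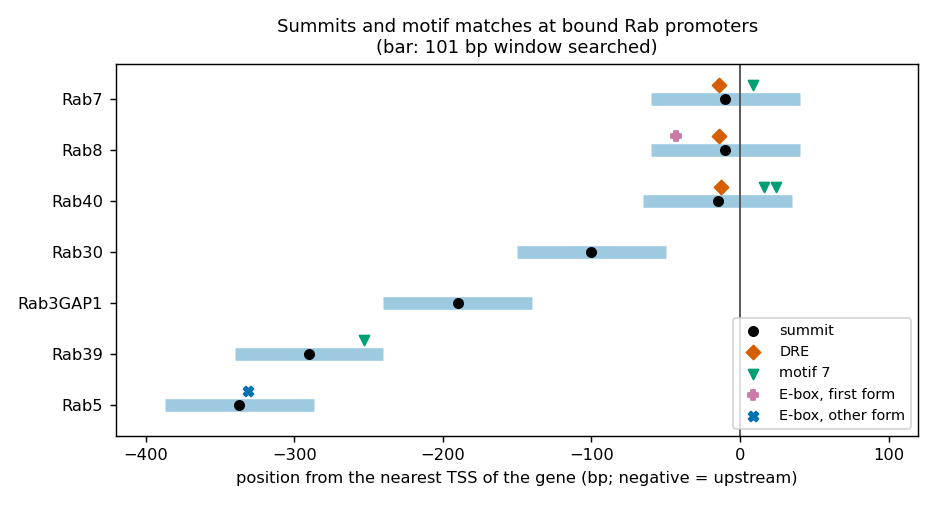
Position of the summit (black point), the window searched, 50 bp to either side (bar), and motif matches at the 7 bound Rab promoters, in bp from the nearest TSS of the gene, negative values being upstream. The first form of the E-box is the one found at Rab8 and the other form the one at Rab5. The DRE matches lie 13 or 14 bp upstream of the TSS at Rab7, Rab8 and Rab40, and the summits run from 10 to 337 bp upstream.

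Heights are given as relative signal, the peak height of a replicate divided by the median of that replicate over the reproducible summits, so that 1 is a typical reproducible peak. The highest peak at a Rab promoter was that of Rab3GAP1 (FBgn0051935), which in mammals encodes the catalytic subunit of the complex that ends the active state of Rab3. Its peak (chr2L:1611132-1611561) was intergenic, with a summit 190 bp upstream of the only TSS and also within 500 bp of the TSS of CG14352. The relative signal was 1.81, 1.36 and 2.17 in replicates 1, 2 and 3, with a mean of 1.78 ± 0.406 (SD, n = 3). All 3 replicates lay above the typical peak, and the pooled signal of 307.7 ranked 764 of 3953, in the top 19.3%. The 2 other regulators were not bound. Rab3-GAP, named for the same complex, had a relaxed peak only, with a pooled signal of 82.1, and Rab3-GEF had a relaxed peak in replicate 2 alone, at 0.214.

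Rab8 (FBgn0262518) directs vesicles from the Golgi and recycling compartments to the plasma membrane. Its peak (chr3L:19870873-19871302) had a summit 10 bp upstream of the TSS, in intergenic sequence shared with the start of Usp32, a deubiquitinase gene. The relative signal was 0.883, 1.45 and 0.998, with a mean of 1.11 ± 0.298 (SD, n = 3). Replicate 2 was high and the others lay just under the median, so the value did not stand apart from a typical peak.

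The endosomal genes came next. Rab39 (FBgn0029959), linked in mammals to endosomes and autophagy, had its summit 290 bp upstream, in the 5′ UTR of its divergent neighbour Pdp (chrX:7734418-7734847). The relative signal was 1.42, 0.754 and 1.08, with a mean of 1.08 ± 0.333 (SD, n = 3). Replicate 2 was the low one. Rab7 (FBgn0015795) marks late endosomes and lysosomes. Its summit lay 10 bp upstream of the TSS, near that of Epp (chr3R:23992783-23993212). Values there were 0.864, 0.544 and 1.15, with a mean of 0.853 ± 0.304 (SD, n = 3), and replicate 2 was again the lowest. Rab5 (FBgn0014010), the Rab of early endosomes, has 6 annotated TSSs. The summit was 337 bp upstream of the nearest, inside an intron of Rab5 itself (chr2L:2363626-2364055), with no other gene's TSS within 500 bp. The relative signal at Rab5 was 0.983, 0.819 and 0.651, with a mean of 0.818 ± 0.166 (SD, n = 3). All 3 replicates were below the typical peak.

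By mean relative signal Rab30 and Rab40 came last, while by pooled signal Rab5 was the lowest. Rab30 (FBgn0031882) encodes a Golgi Rab, and its summit lay 100 bp upstream of the TSS in a region shared with Caper, a splicing factor gene (chr2L:7032491-7032920). Values were 0.510, 0.909 and 0.908, with a mean of 0.776 ± 0.230 (SD, n = 3), replicate 1 being low. Rab40 (FBgn0030391) is known from vertebrates as a Rab with a SOCS box that joins ubiquitin ligases. Its summit was 15 bp upstream of the TSS and near that of CG42258 (chrX:12462912-12463341). The relative signal was 0.837, 0.626 and 0.383, with a mean of 0.615 ± 0.227 (SD, n = 3). In replicate 3 a higher peak of 0.946 lay within 500 bp of the TSS but over 100 bp from this summit. Along the order of the 7 promoter peaks, the replicate ranges of every pair of neighbours overlapped.

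As a group the bound Rab promoters were not high among reproducible peaks. The median over the 7 mean values was 0.853, beside 1.06 for bound protein-coding genes and 1.05 for all bound genes. Within replicates 1, 2 and 3 the median of the 7 was 0.883, 0.819 and 0.998, beside 1.05, 1.03 and 1.06 for all 1985 promoter summits. The Rab median was thus below the general one in each replicate. Leaving out the weaker of the reproducible peaks, those under their own median signal, left 3 bound genes, Rab3GAP1, Rab8 and Rab39 (8.33%, beside 9.79% of protein-coding genes). Peaks shared by the strongest of the remaining replicates left 4 bound genes without replicate 1, 5 without replicate 2 and 4 without replicate 3 (11.1%, 13.9% and 11.1%, beside 13.0% of protein-coding genes in each case). Among the 3953 strongest peaks of each replicate alone, 6, 5 and 10 Rab genes had a summit within 500 bp of a TSS, beside 16.6%, 16.6% and 17.5% of protein-coding genes. Between replicates the rank correlation of the highest peak at the TSS was 0.765 for replicates 1 and 2 (16 genes), 0.628 for 1 and 3 (19 genes) and 0.810 for 2 and 3 (18 genes). These describe genes with a peak in both lists, which are not independent replicates.

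All 7 summits at bound Rab genes lay upstream of the nearest TSS, beside 83.6% of bound genes in general, at a median of 100 bp. For bound protein-coding genes that median was 126 bp. Each of the 7 genes was arranged head to head with another gene within 1000 bp, beside 65.5% of bound genes. Head-to-head arrangement held for 19 of all 36 Rab genes (52.8%), beside 39.6% of protein-coding genes. At 6 of 7 genes the summit also lay within 500 bp of a TSS of the partner, beside 60.4% of bound genes, so these peaks could not be assigned to the Rab gene alone. Rab5 was the exception, its partner Axud1 lying at another of its start sites. Of the 9 Rab genes with more than 1 TSS, 4 were bound, beside 28.7% of such protein-coding genes, and of the 27 with 1 TSS, 3 were bound, beside 12.9%.

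The highest reproducible peak at any Rab gene was not at a promoter but in an intron of Rab11 (FBgn0015790), the Rab of recycling endosomes, which supplies membrane to the furrows of the cellularising fly embryo. The peak (chr3R:21113041-21113470) had its summit 1848 bp downstream of the only TSS. The relative signal was 2.35, 1.85 and 2.13 in replicates 1, 2 and 3, with a mean of 2.11 ± 0.249 (SD, n = 3). All 3 replicates were well above the typical peak, and the pooled signal of 376.1 ranked 515 of 3953, in the top 13.0%. The lowest replicate of Rab11 exceeded the highest of Rab14, the next gene-body peak. At the Rab11 start site itself the highest relaxed peaks were low, at 0.552, 0.329 and 0.269. The window at the intronic summit (chr3R:21113206-21113306, plus strand, RefSeq Release 6) is shown because it carried the strongest signal. None of the motifs searched was found in it, and no letter is in capitals.
Rab11: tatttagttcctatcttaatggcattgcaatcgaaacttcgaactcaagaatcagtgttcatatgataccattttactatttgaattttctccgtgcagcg

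Counting Rab5, whose promoter summit also lies inside the gene, 5 of 36 Rab genes (13.9%) had a reproducible summit in the gene body, beside 10.8% of protein-coding genes. The count was 3 by the peaks shared without replicate 1, beside 8.53% of protein-coding genes, and 1 (Rab11) among peaks at or above the median signal, beside 6.41%. It was 10 where any base of a peak was counted, beside 19.0%. The genes gained that way were Rab30, Rab3GAP1, Rab40, Rab7 and Rab8, whose promoter peaks reach into the gene. A gene-body summit without one at a TSS was found at 4 of 36 (11.1%), beside 4.52%. The Rab genes had a median length of 2882 bp, beside 2166 bp for protein-coding genes, and the part of length in these counts was not tested.

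The other 3 gene-body peaks were of ordinary height. Rab14 (FBgn0015791) acts between endosomes and the Golgi, and its intronic summit lay 539 bp downstream of a TSS (chr2L:14355469-14355898), inside lncRNA:CR44851 as well. The relative signal was 0.867, 0.988 and 0.760, with a mean of 0.872 ± 0.114 (SD, n = 3). Rab23 (FBgn0037364) shapes planar cell polarity in the fly wing and restrains Hedgehog signalling in mice. Its intronic summit was 2288 bp downstream of the TSS (chr3R:5682931-5683360) and was the only member window with a TATA-box match, found in 18.3% of all windows away from promoters. Values at Rab23 were 1.16, 0.962 and 0.444, with a mean of 0.855 ± 0.370 (SD, n = 3), replicate 3 being low. Rab32 (FBgn0002567), also called lightoid, is needed for the pigment granules of the fly eye. Its summit (chr2R:9183474-9183903) was 2190 bp upstream of the nearest Rab32 TSS, in an exon and near the TSS of lncRNA:CR44284, which lies within Rab32. Values were 0.605, 0.504 and 0.726, with a mean of 0.612 ± 0.112 (SD, n = 3), all below the typical peak. The replicate ranges of these 3 peaks overlapped in order. All 11 reproducible peaks had the same q of 0.000142 in the authors' deposited list.

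**Figure D3:**
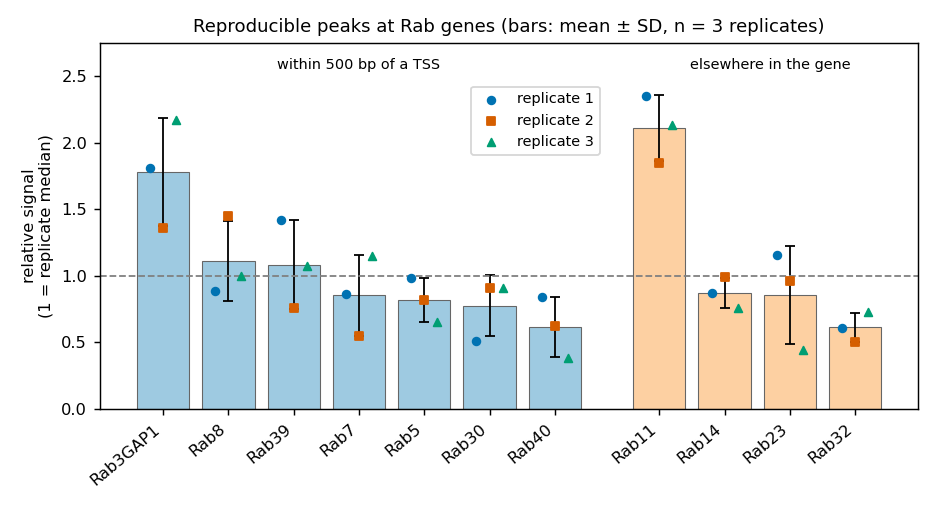
Relative signal at the 11 reproducible peaks of Rab genes, 7 within 500 bp of a TSS and 4 elsewhere in the gene. Bars are means with SD over 3 replicates, points are single replicates and the dashed line at 1 is the replicate median over all reproducible summits. Rab11 (mean 2.11) and Rab3GAP1 (mean 1.78) were the only peaks above the line in all 3 replicates.

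The remaining Rab genes had at most relaxed peaks at their start sites. The lowest pooled signal in the reproducible set was 108.6, and both RabX1 and Rab1 fell just under it. RabX1, an endosomal Rab, had a pooled signal of 107.0 (q = 0.00187), with relative signals of 0.493, 0.604 and 0.839. Rab1, which acts between the endoplasmic reticulum (ER) and the Golgi, had 105.3 (q = 0.00208), with 0.428, 0.491 and 0.644. On the other side of the threshold the nearest bound gene was Rab5, at 125.6. Both genes would count as bound in a set of all pooled peaks with q of at most 0.01.

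Below these, pooled signals ran from 82.1 to 39.9 over 13 genes. At the upper end were Rab3-GAP, Rab14 (81.2) and Rab27 (79.0), a secretory Rab that reached 0.379 in replicate 1 and 0.935 in replicate 3 but had no peak in replicate 2. Rab18, a Rab of the ER and lipid droplets that shares its upstream region with the ribosomal protein gene RpL35, had 69.0, and its nearest reproducible summit was 911 bp from its TSS. Rab32 (64.7), Rab2 (63.2), Rab10 (61.0), Rab21 (57.0), Rab4 (53.6), Rab11 (50.3) and Rab23 (48.8) followed. Rab10 serves secretion of basement membrane in fly follicle cells and Rab4 serves fast recycling. The lowest were Rab19 (42.0), without a peak there in any replicate, and Rab26 (39.9), a synaptic vesicle Rab that lies head to head with Pc. The median pooled signal over the 22 Rab genes with a relaxed peak was 80.1, beside 78.5 for protein-coding genes with one.

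A further 8 genes had no pooled relaxed peak at a TSS but had one in at least 1 replicate. They were Rab3, Rab3-GEF, Rab6, Rab9, Rab35, RabX4, RabX5 and RabX6, and their values ran from 0.174 to 0.381. Rab3, the Rab of synaptic vesicles, and Rab9, which acts from late endosomes to the Golgi, had a pooled relaxed peak in the gene body instead, at 50.3 and 49.7. In sum 15 of 36 genes had a relaxed peak at a TSS in all 3 replicates (41.7%, beside 32.7% of protein-coding genes) and 29 in at least 1 (80.6%, beside 64.9%). The relaxed lists also hold background by their name, and the replicates' own lists placed one at 43.0%, 52.4% and 49.7% of protein-coding genes.

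The 6 genes with no peak in any list, at a TSS or in the gene, were Rab9D, Rab9Db, Rab9E, Rab9Fa, Rab9Fb and RabX2, all on chromosome X. They were also the only Rab genes with repeated sequence at the start site. Of the 31-base words within 500 bp of the TSS, 75.3% occurred more than once on the arms for Rab9E, 70.6% for Rab9Fa, 62.1% for Rab9Db, 44.5% for Rab9D, 32.8% for RabX2 and 5.46% for Rab9Fb, and 0% for each of the other 30 genes. The treatment of reads from repeated sequence is not stated in the labels or file notes, and its part in the missing peaks was not tested. Among the 30 genes without repeated sequence, 7 were bound (23.3%), 22 had a pooled relaxed peak at a TSS (73.3%) and 5 had a reproducible summit in the gene (16.7%). The shares of all protein-coding genes were 17.1%, 47.0% and 10.8%, with repeated start sites not left out, so the sets are unlike. Leaving out the 6 Rab genes, which had no peak, could only raise the Rab shares.

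By role, reproducible summits at a TSS or in the gene were found at 6 of 11 endosomal and lysosomal Rabs (Rab5, Rab7, Rab39, Rab11, Rab14 and Rab32). They were found at 1 of 6 Rabs of the secretory pathway between ER and Golgi (Rab30) and at 1 of 5 Rabs of exocytosis (Rab8). Rab40 and Rab23 were the 2 among 6 other or less studied Rabs, and Rab3GAP1 was the 1 among 3 regulators. Of the 5 X-linked genes Rab9D to Rab9Fb, 0 had one. Over all protein-coding genes the share with a summit in either place was 21.6%. These groups are small, and the difference between them was not tested. Of the endosomal genes named, Rab5, Rab32, Rab7 and Rab14 have more than 1 TSS, and Rab39 and Rab11 have 1. Protein-coding genes with more than 1 TSS were bound more often in general (28.7%, beside 12.9% of those with 1). The part of this in the counts was not tested. By arm, 3 of 7 Rab genes on 2L were bound, 1 of 5 on 3L, 1 of 5 on 3R, 2 of 14 on X and 0 of 5 on 2R, where between 15.9% and 19.0% of protein-coding genes were bound on each of these arms.

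Genes that act with Rab proteins were counted in lists picked by role, with earlier results of these data known. Their shares are therefore descriptions only. Of 145 matched genes that are not Rab genes, 38 were bound (26.2%), beside 17.1% of protein-coding genes. Of the Rab GEFs, 8 of 21 were bound (38.1%), and the highest was spri, a homologue of the mammalian RIN exchange factors for Rab5, at 2.54 ± 0.263 (SD, n = 3). By mean rank over the replicates gry (1.69 ± 0.452), a TRAPP subunit, and brun (0.992 ± 0.0403), another, came next. Mon1 (0.981 ± 0.178) and Ccz1 (1.003 ± 0.177), subunits of the exchange factor for Rab7, were among the 8, a pair chosen after its values were seen. Only 1 of the 13 genes listed as Rab GAPs was bound, TBC1d7 at 0.630 ± 0.0287, in a region shared with Myo95E. Whether its protein acts on a Rab was not examined here. The difference between the GEF and GAP counts was not tested, and with a window of 1000 bp the GAP count was 4.

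Among Rab effectors and tethers 11 of 43 were bound (25.6%). Vps33B, a tethering protein of the endosomal route, had 4.63 ± 0.234, shared with Fur1, and its lowest replicate of 4.49 exceeded every value given for a Rab gene. Rbsn-5, an effector of Rab5, had 2.98 ± 0.206, shared with PAPLA1, and didum, the myosin V motor, had 1.72 ± 0.259. Of 4 genes for prenylation and recycling of Rab proteins, 2 were bound. RabGGTb, the catalytic subunit of the enzyme that adds the prenyl groups, had 0.865 ± 0.0818, while its partner RabGGTa had 0.455 in replicate 1 and no matching peak in the others.

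The other families of small GTPases share the switch between GTP and GDP but serve other membranes and signals. Of 12 Arf, Arl and Sar genes 3 were bound, Arl1 of the Golgi (1.24 ± 0.0814), Arl5 (1.06 ± 0.128) and dnd, with 0.761 and 0.811 in replicates 2 and 3 and no matching peak in replicate 1. Of 14 Ras, Rheb, Ran and Rag genes 3 were bound, Ras85D (1.41 ± 0.257), Rap1 (0.765 ± 0.0931) and Rheb (0.723 ± 0.0922). SNARE proteins fuse the vesicles that Rabs deliver, and 7 of 29 were bound (24.1%), led by Vti1b (2.97 ± 0.268), Syx4 (2.07 ± 0.243) and Ykt6 (1.71 ± 0.504). Most of the named summits lay within 500 bp of a further gene's TSS, as at the Rab genes.

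**Figure D4:**
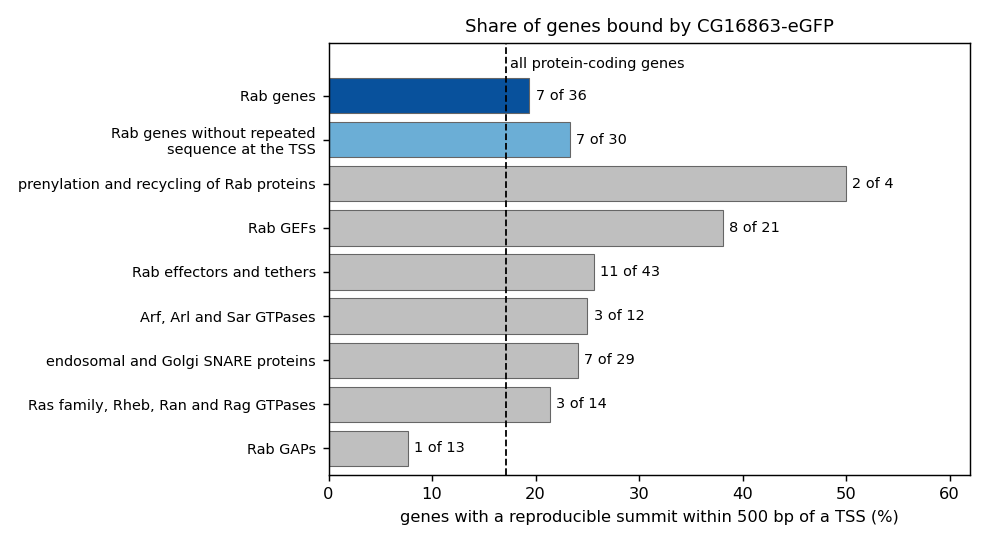
Percentage of genes with a reproducible summit within 500 bp of a TSS, for the Rab genes, the Rab genes without repeated sequence at the TSS, and lists of genes that act with Rab proteins or are related to them. Numbers at the bars give bound genes of genes matched, and the dashed line is the share of all protein-coding genes (17.1%). Genes with repeated sequence at the TSS were not left out of that line. The lists were picked with earlier results of these data known. The Rab genes lie near the line (19.4%), the Rab GEFs above it (38.1%) and the Rab GAPs below it (7.69%).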

How the data were processed

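ChIP-seq of CG16863-eGFP was deposited as peak lists on dm6 for 3 replicates, and the dm3 lists were not used here. Per the labels' file notes, each relaxed list came from an alignment of the replicate and a further shared file that also served for control-normalised signal. The pooled list came from all alignments and that file, and the IDR set from these lists. Each peak has a signal that the authors deposited, and a significance as −log10 q per the file contents, converted here to q. The lists held 24378, 30000 and 29769 relaxed peaks for replicates 1, 2 and 3, 23571 pooled peaks and 3953 IDR peaks, which were the pooled peaks with signal of at least 108.6. The aligner, the caller, the settings of IDR and the depth: not given in the sources used here, so no counting interval is printed.

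Genes and TSSs came from Ensembl release 115 (BDGP6), on dm6 coordinates, counted from 1. The relative signal of a replicate is the height of its strongest relaxed peak whose summit fell 100 bp or less from the IDR summit, divided by the replicate median over IDR summits (55.2, 70.0 and 54.0). Python 3.11.15, pandas 2.3.3, numpy 2.4.6 and scipy 1.17.1 were used, and the counting was tested on simulated data. Every gene with an IDR summit was named with its values, other Rab genes by their strongest relaxed signal, and up to 3 bound genes per related list by mean rank. The members, lists and motifs were chosen with earlier results of these data known. Of the listed related genes, 10 symbols had no match, and 1 list that counts in the total is not reported here. No test was made, since there is 1 group. Alternatives were the TSS window, the peak set, each replicate left out, summit matching, scaling and peak bases in place of summits. A check without repeated start sites was added after the data were seen.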

Additional observations from a re-analysis of the deposited data

How the results depend on the processing

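Shares in parentheses are of all protein-coding genes under the same setting. The count of 7 bound Rab genes was 5 with a TSS window of 200 bp (12.1%; Rab39 and Rab5 lost) and 9 with 1000 bp (19.8%; Rab14 and Rab18 gained). It was 9 with pooled peaks of q up to 0.01 (20%; Rab1 and RabX1 gained) and 8 with any base of the peak (18.4%; Rab14 gained). With the strongest peaks of replicates 1, 2 and 3 it was 6, 5 and 10 (16.6%, 16.6% and 17.5%). With IDR peaks at or above their median signal it was 3 (9.79%), and 1 gene-body peak, at Rab11, and 22 in place of 38 bound related genes were left. All 3 such summits were upstream of the TSS. With a TSS window of 1000 bp, 8 of 9 summits were upstream. Leaving out each replicate in turn, by peaks shared by the strongest of the other replicates (2766 to 2854 peaks in all), gave 4 to 5 bound genes (13.0%) and 3 to 5 genes with a gene-body summit (8.26% to 8.53%), in place of 7 and 5. These sets are smaller by construction. Rab3GAP1, Rab39 and Rab5 were bound in each. Without replicate 1, Rab40, Rab7 and Rab8 were lost, without replicate 2, Rab30 and Rab40, and without replicate 3, Rab30, Rab40 and Rab7. Of the gene-body summits, that of Rab32 was lost in each and that of Rab23 without replicate 1 or 2, while Rab8 was gained without replicate 2 or 3 and Rab7 without replicate 2. Rab8 and Rab7 stayed bound at a TSS in the sets where they were gained. Counting any base of a peak raised the genes with a gene-body peak from 5 to 10 (19.0%). Those added were Rab30, Rab3GAP1, Rab40, Rab7 and Rab8, already bound at the promoter. Scaling to the median of all relaxed peaks, which are mostly weak, changed the median relative signal of the bound genes from 0.853 to 2.69. The values of all 11 peaks moved under that scaling, which changes the unit, so this says nothing about stability. None moved by more than its SD under the other matching distances. Those means skip replicates without a matching peak, so a replicate lost at 50 bp does not show in that comparison. Leaving out 1 of 3 replicates cannot move a mean by as much as the SD of the same 3 values. That comparison therefore shows nothing about the stability of the values. No paired analysis was possible because there is 1 group. Depth is unknown, so a missing peak is not shown to be absence of binding.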
